A study of Mus musculus with 2 samples.

Results

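The 10 genes described here are the AP-1 and immediate early genes Fos, Fosb, Fosl1, Fosl2, Jun, Junb, Jund, Atf3, Egr1 and Ier2, found by symbol among the 27998 genes of the deposited count tables. They were followed in single-cell RNA libraries of metaphyseal mesenchymal progenitors from the femur of Gli1-CreERT2;Ai9 mice of mixed background, 1 month old. In these mice Cre is driven by Gli1 and needs tamoxifen to act, and Ai9 then marks the cell and its progeny with tdTomato for good, so the label records past Gli1 expression and not its present level. All mice received tamoxifen once daily for 3 days and then 3 daily injections of vehicle or of teriparatide, a fragment of parathyroid hormone, at 400 ng per g of body weight. There were 5 mice in a group (3 males, 2 females), sequenced as 1 library by the droplet method of 10x Genomics, and the files do not tie a cell to a mouse. Tissue was taken on the day after the last injection. Metaphyseal bone reaching some 5 mm from the growth plate was crushed and treated with collagenase (20 min, 37 degrees C), and cells positive for tdTomato and negative for CD31, CD45 and Ter119 were sorted. With 1 library per group there is no replicate and no test of the treatment: every 95% interval here covers the counting of molecules or cells only, and every difference is one between 2 libraries.

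AP-1 is a dimer of basic leucine zipper proteins of the Fos and Jun families. Jun proteins pair with each other or with a Fos protein, Fos proteins need a Jun partner, and Atf3 can join Jun proteins or pair with itself. Most of the genes are immediate early genes: a growth factor, hormone or stress signal switches them on from factors already present in the cell, and both the transcripts and many of the proteins are short-lived. In bone, Fos is best known for its need in osteoclast formation, overexpressed Fosl1 and a short form of Fosb raise bone mass, and parathyroid hormone induces Fos in osteoblasts through cyclic AMP and CREB. The same genes are known to be switched on when tissue is dissociated with warm enzyme, a step that both libraries shared.

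CREB binds the half-site TGACG, and promoters from the RefSeq promoter table were searched for it and for the 8-base site TGACNTCA. Shown are the 5 members with a match to either. Fosl2 and Jund also had an entry but held neither site, so the printed windows were picked by their matches. An entry existed for 7 of the 10 members. Each line gives the 150 bases before the start of the table's entry, read along the gene's strand on GRCm38, with TGACG (or its complement on the other strand) and the 8-base site TGACNTCA in capitals, and a site that matched both would count under each. The windows lie at chr12:85473740-85473889 (plus strand), chr7:19310046-19310195 (minus), chr4:95052223-95052372 (minus), chr8:84978749-84978898 (minus) and chr1:191183334-191183483 (minus).
Fos: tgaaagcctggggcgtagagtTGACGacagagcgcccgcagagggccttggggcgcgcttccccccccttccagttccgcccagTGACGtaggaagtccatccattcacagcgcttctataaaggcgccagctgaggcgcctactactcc
Fosb: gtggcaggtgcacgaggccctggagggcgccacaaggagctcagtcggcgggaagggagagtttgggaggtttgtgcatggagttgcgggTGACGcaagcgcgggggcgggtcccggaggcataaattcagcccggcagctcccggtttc
Junb: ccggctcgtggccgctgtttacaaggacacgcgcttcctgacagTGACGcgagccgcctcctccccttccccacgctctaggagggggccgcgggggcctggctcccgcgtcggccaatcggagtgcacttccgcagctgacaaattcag
Atf3: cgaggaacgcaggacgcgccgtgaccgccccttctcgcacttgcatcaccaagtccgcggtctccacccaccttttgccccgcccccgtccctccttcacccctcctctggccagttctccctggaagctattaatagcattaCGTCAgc
Jun: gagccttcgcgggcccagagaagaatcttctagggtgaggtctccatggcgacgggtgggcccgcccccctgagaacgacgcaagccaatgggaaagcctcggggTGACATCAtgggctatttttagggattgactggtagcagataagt
Fos held TGACG in 2 places, 129 and 66 bases before its start, and Fosb and Junb held it once, 60 and 106 bases before theirs. Atf3 held the complement 7 bases before the start of its entry. That start lies inside the gene, which GENCODE annotates on the minus strand of chromosome 1 from 191170296 to 191218039. The Atf3 window therefore does not describe the start farthest upstream. It overlaps an exon annotated by GENCODE by 7 bases, and the Fosb window overlaps one by 6 bases. Jun held TGACATCA, 45 bases before the start. Over the full 250 bases, 4 of the 7 members and 17.8% of all 32851 promoters held TGACG on either strand, and 1 of 7 and 7.49% held TGACNTCA. The AP-1 site in its 7-base form TGANTCA was in none of the 7 windows and in 6.75% of all. These matches describe letters in a window and not binding, and a link between them and the levels of the members was not tested.

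The vehicle library held 1286 barcodes and 10567335 unique molecular identifiers (UMIs, each 1 captured mRNA molecule), and the teriparatide library 2142 and 26270041. They shared 2 barcode sequences. With the limits of the study, 549 and 1217 cells were kept. Clusters, found without using the 10 genes, were named from marker genes: OB-like cells (osteoblasts, 96 vehicle and 94 teriparatide cells), preOB-like cells (preosteoblasts, 60 and 53), COP-like cells (chondro-osteoprogenitors with Sox9, Sox5, Sox6, Col2a1 and Acan, 66 and 264), MALP-like cells (marrow adipogenic lineage precursors, 125 and 80) and Ocy-like cells (osteocytes, 17 and 38). The preOB-like cluster met its own markers but was also led by Rgs5 and Acta2, genes of pericytes and smooth muscle. Despite the sort, neutrophil-like (22 and 192), monocyte-like (21 and 148) and erythroid-like cells (52 and 165) were present. Of the mesenchymal cells whose sex could be called, 52.5% were male with vehicle and 90.0% with teriparatide, although both groups were stated to hold the same number of mice of each sex. Levels are UMIs of a gene per 1000000 UMIs of all genes (CPM), taken from the summed counts of all cells of a class and library. The 3' counting gives about 1 read end per molecule, and levels are compared here between classes and libraries, not between genes.

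The COP-like cells held more AP-1 and immediate early transcripts than the other 7 classes shown, at nearly the same level in both libraries when all cells were summed. The 10 genes together made up 1.55% of all their UMIs with vehicle and 1.55% with teriparatide, or 15536 CPM (15355–15718) and 15532 CPM (15446–15619). The next mesenchymal class with over 50 cells per library, the MALP-like cells, held 6234 CPM and 3237 CPM, the OB-like cells 4062 CPM and 1543 CPM, and the preOB-like cells 2448 CPM and 1389.8 CPM. In the few Ocy-like cells the sum was 10825 CPM and 7991 CPM. Erythroid-like cells, which served as a low reference, held 818 CPM and 605 CPM. For these pooled counts the order COP-like, MALP-like, OB-like, preOB-like was the same in both libraries, with intervals that did not overlap in either library. The OB-like and preOB-like cells of the teriparatide library lay close, at 1543 CPM (1496–1590.5) against 1389.8 CPM (1306–1478). By the median cell of that library, the OB-like cells (957 CPM) were slightly above the MALP-like cells (942 CPM). The pooled order held in male cells of both libraries and in female vehicle cells. In female teriparatide cells it did not: MALP-like cells had 1849 CPM over 7 cells, preOB-like 1764 CPM over 6 and OB-like 1023 CPM over 5.

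**Figure D1:**
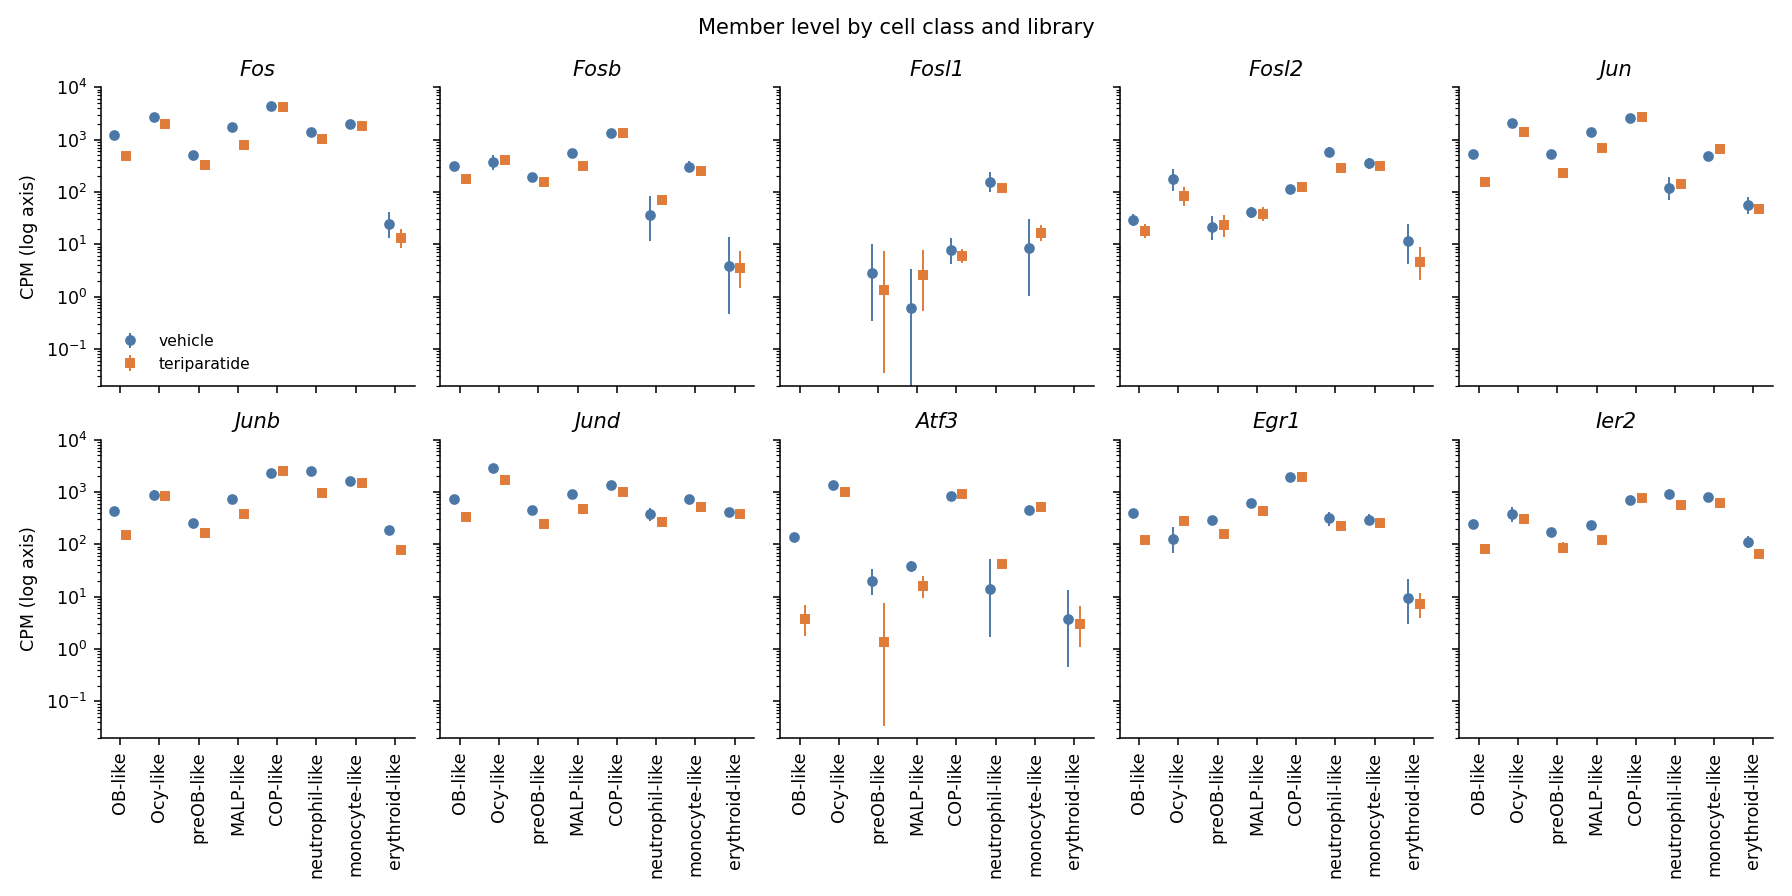
Each panel plots 1 of the 10 genes: CPM on a log axis against 8 cell classes, with circles for the vehicle and squares for the teriparatide library and bars for the exact Poisson 95% interval (classes with 0 UMIs are not drawn). The COP-like cells sit highest of the 8 classes for Fos, Fosb, Jun and Egr1 in both libraries, an Ocy-, neutrophil- or monocyte-like class sits above them for each other gene in at least 1 library, and the erythroid-like cells sit lowest for most genes.

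Of the Fos family, Fos (ENSMUSG00000021250, chromosome 12 from 85473890 to 85477273) had 4294 CPM (4199–4390.1) in the vehicle and 4169 CPM (4124–4214) in the teriparatide COP-like cells. The next of the OB-, preOB- and MALP-like classes, the MALP-like cells, had 1762 and 796 CPM. Fosb, the closest relative of Fos, stood at 1347 CPM (1294–1402) and 1365 CPM (1339–1390.5), against 543 and 316 CPM in MALP-like cells. Both genes were thus more than 2-fold higher in the COP-like than in the MALP-like cells of each library. Fosl2, which encodes Fra-2, a Fos protein with no strong activation domain, had 113 CPM (97.7–129) and 124 CPM (116–132), and 41.5 and 38.6 CPM in MALP-like cells. Fosl1, which encodes Fra-1, was nearly silent in the mesenchyme, with 14 and 48 UMIs over all COP-like cells (7.73 and 6.04 CPM) and 0 UMIs in the OB-like cells of both libraries, which allows up to 1.32 and 1.13 CPM. Its highest level was in the neutrophil-like cells, at 157 and 117 CPM.

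Of the Jun family, Jun (chromosome 4 from 95049034 to 95052222), the strongest activator of the 3, had 2605 CPM (2531–2679.9) and 2710.4 CPM (2674–2747) in COP-like cells and 1373 and 678 CPM in MALP-like cells. Junb, which can dampen Jun and whose loss lowers bone formation in mice, had 2328 CPM (2259–2399.8) and 2481 CPM (2446–2516), against 724 and 375 CPM. Jund, the family member that resting cells already express, differed least between classes: 1339.5 CPM (1287–1394) and 993 CPM (971–1015) in COP-like cells, 901 and 465 CPM in MALP-like cells, and still 413 and 382 CPM in erythroid-like cells. In the vehicle library it was the only 1 of the 9 members measured that missed the 1.5-fold limit against the MALP-like cells, at 1.49-fold. The Ocy-like cells were above the COP-like cells in Jund, at 2829 and 1729.9 CPM.

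Atf3, a stress-induced partner of Jun, had the widest gap of the members with at least 50 UMIs between the COP-like cells and the next of the OB-, preOB- and MALP-like classes. It was 6.04-fold with vehicle, against OB-like cells at 139 CPM, and 58.1-fold with teriparatide, against MALP-like cells at 15.8 CPM. The 2 folds thus compare with different classes. The OB-like level had 85.4% of its UMIs in 5 of 96 cells, and the MALP-like level rested on 18 UMIs. Atf3 had 840.4 CPM (799–884) and 916 CPM (895–937) in COP-like cells, 38.5 and 15.8 CPM in MALP-like cells and 19.9 and 1.36 CPM in preOB-like cells. Only the Ocy-like cells were higher, at 1336 CPM (1121–1580.3) and 991 CPM (878–1114). Egr1, a zinc finger factor and no AP-1 protein, had 1947 CPM (1883–2012) and 1983 CPM (1952–2014) in COP-like cells and at most 615 CPM in any other class shown. Hypertrophic chondrocyte-like cells, not among the classes shown, had 149 and 635 CPM of Egr1 over 5 and 19 cells. Ier2, a small nuclear protein induced by serum, had 714 CPM (676–755) and 785 CPM (766–805), and its next mesenchymal class of the 3 compared had 248 CPM (OB-like, vehicle) and 119 CPM (MALP-like, teriparatide).

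Counted over the members, 8 of 9 with at least 50 UMIs in the vehicle library, and 10 of 10 with teriparatide, were at least 1.5-fold higher in the COP-like cells than in the highest of the OB-, preOB- and MALP-like cells. Of all genes with as many UMIs, 8.79% and 9.79% were. The few Ocy-like cells were not part of this count. They held more Jund (2829 and 1729.9 CPM) and Atf3 (1336 and 991 CPM) than the COP-like cells in both libraries. With vehicle they also held more Fosl2, at 177 CPM, and their Jun, at 2063 CPM, came near the 2605 CPM of the COP-like cells. In all other cases the COP-like cells were higher. The 50 UMIs were counted over the COP-, OB-, preOB- and MALP-like cells together. In the teriparatide library Fosl1 and Atf3 reached that limit only through the COP-like cells, the class then called higher. Fosl1 had 48 UMIs there against 3, 1 and 0 in the MALP-, preOB- and OB-like cells, and Atf3 7285 against 18, 1 and 10. Fosl1 is thus among the 10 on few UMIs, and its interval reached below 0 on the log2 scale. The median member was 1.44 above the MALP-like cells with vehicle and 2.16 with teriparatide on the log2 scale, where the median of all genes was -0.35 and -0.44. The gap to the OB-like cells was 2.12 and 3.27. The COP-like cells were also the deepest of these classes, with a median of 28719 and 30875 UMIs per cell. Thinned to 3000 UMIs each, 89.2% and 93.5% of the COP-like cells held a UMI of Fos, against 56.4% and 48.9% of the OB-like, 55.3% and 35.4% of the MALP-like cells. In the erythroid-like cells the shares were 2.94% and 2.17%. Unthinned, the shares were 95.5% and 98.1% in the COP-like and 3.85% and 7.27% in the erythroid-like cells, with a median of 9360 and 10463 UMIs in the latter.

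The 3 clusters of the COP-like class differed in the 10 genes. The cluster led by Ppa1 and Top2a, which holds dividing cells, was lowest, at 13855 CPM (13634–14080.1) over 35 vehicle and 12618 CPM (12502–12735) over 101 teriparatide cells. The cluster led by Cpm and Sfrp5 had 18135 CPM (17795–18480.1) over 25 and 18222 CPM (18061–18383) over 102 cells. The cluster led by Stc2 and Chad had 17287 CPM (16610.4–17984) over 6 and 17406 CPM (17207–17606) over 61 cells. Within each cluster the libraries lay close, and the order Ppa1-led below the other two was the same in both. Ier2 in the Stc2-led cluster (815 and 1123 CPM) and Atf3 in the Cpm-led cluster (888 and 1199 CPM) were higher in the teriparatide library, and Jund was lower in all 3 clusters.

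In the OB-like cells, 9 of the 9 members with at least 50 UMIs were at least 1.5-fold lower in the teriparatide than in the vehicle library, where 13% of 6369 genes were that much lower and 6.92% that much higher. None was higher. Their sum was 4062 CPM (3979.8–4146) in the vehicle and 1543 CPM (1496–1590.5) in the teriparatide library, 2.63-fold lower, a log2 ratio of -1.40 (-1.45 to -1.34). The median member stood at -1.49 and the median gene at -0.13. Scaled to that median gene the log2 ratio of the sums was -1.27, and with each cell thinned to 3000 UMIs, since the median cell held 17602 UMIs with vehicle and 25480.0 with teriparatide, it was -1.30. Fos had 1236 CPM (1191–1283) and 489 CPM (463–516), and Fosb 309 CPM (287–333) and 180.5 CPM (165–197). The Jun family was lower as well, with 540.3 and 157 CPM of Jun, 426 and 151 CPM of Junb, and 737 and 338 CPM of Jund. None of these intervals overlapped between the libraries. Egr1 had 397 CPM (372–424) and 124 CPM (111–138), Ier2 248 CPM (228–269) and 81.6 CPM (71.1–93.2), and Fosl2 29.5 CPM (22.8–37.4) and 18.0 CPM (13.3–23.9), whose intervals overlapped slightly.

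Atf3 was the extreme case, with 316 UMIs over the OB-like cells treated with vehicle and 10 over those treated with teriparatide, or 139 CPM (124–155) and 3.76 CPM (1.80–6.92). This gap rested on few cells and on where osteoblasts end and osteocytes begin: 85.4% of the vehicle UMIs lay in 5 of 96 cells. Without the 5 cells richest in Atf3 of each library the levels were 22.2 and 1.21 CPM, on 46 and 3 UMIs. With the Ocy-like cells joined to the class they were 190.3 and 98.6 CPM, 1.93-fold lower in the teriparatide library. The joined class had a summed log2 ratio of -1.01, with 8 members at least 1.5-fold lower.

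In the MALP-like cells, 7 of 9 members measured were at least 1.5-fold lower in the teriparatide library and none higher, beside 10.2% and 8.25% of 6870 genes. The sum went from 6234 CPM (6114–6356) to 3237 CPM (3134–3343), a log2 ratio of -0.95 (-1.00 to -0.89). Fos had 1762 CPM (1698–1828) and 796 CPM (745–849), Jun 1373 CPM (1317–1431) and 678 CPM (631–727), and Jund 901 CPM (855–948) and 465 CPM (427–507). These were 2.21-, 2.03- and 1.93-fold lower, with intervals that did not overlap. The exceptions were Egr1, with 615 CPM (578–654) and 431 CPM (394–471), and Fosl2, with 41.5 and 38.6 CPM and a log2 ratio of -0.11 (-0.69 to 0.46). The remaining 4, Fosb, Junb, Atf3 and Ier2, had log2 ratios from -1.29 (Atf3, on 63 and 18 UMIs) to -0.78 (Fosb).

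In the preOB-like cells the same direction appeared but rested on few cells. Of 7 members measured, 6 were at least 1.5-fold lower in the teriparatide library and none higher, beside 18.2% and 8.57% of 4388 genes. The sum was 2448 CPM (2334–2567) and 1389.8 CPM (1306–1478), a log2 ratio of -0.82 (-0.93 to -0.70). Jun had 536 CPM (484–593) and 230.1 CPM (197–267), the widest gap among the members with 50 UMIs, and Fosb had 189 CPM (158–224) and 154 CPM (127–185), whose intervals overlapped. However, 57.7% of the member UMIs of the vehicle library lay in 5 of 60 cells, and without the 5 richest cells of each library the log2 ratio was -0.49. The median preOB-like cell was not lower in the teriparatide library: it held 706 CPM in the vehicle and 809 CPM in the teriparatide library. With a mitochondrial limit of 20% the log2 ratio of the sums was -0.11, and with each cell thinned to 3000 UMIs it was -0.16 and no member was 1.5-fold lower.

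In the COP-like cells no member was 1.5-fold lower or higher over all cells, beside 17% and 8.14% of 9215 genes. The sexes differed here, with a summed log2 ratio of 0.17 in male and -1.34 in female cells, as given below. Over all cells the ratio of the sums was -0.00033 (-0.019 to 0.018) on the log2 scale, and the single members lay between -0.43 (Jund) and 0.14 (Fosl2). The lowest was Jund, at 1339.5 CPM (1287–1394) and 993 CPM (971–1015), 1.35-fold lower. The median gene of the class stood at -0.20, and scaled to that median the members together were 0.20 higher. Fosl1, the one member with a wide interval here, had a log2 ratio of -0.36 (-1.24 to 0.62).

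**Figure D2:**
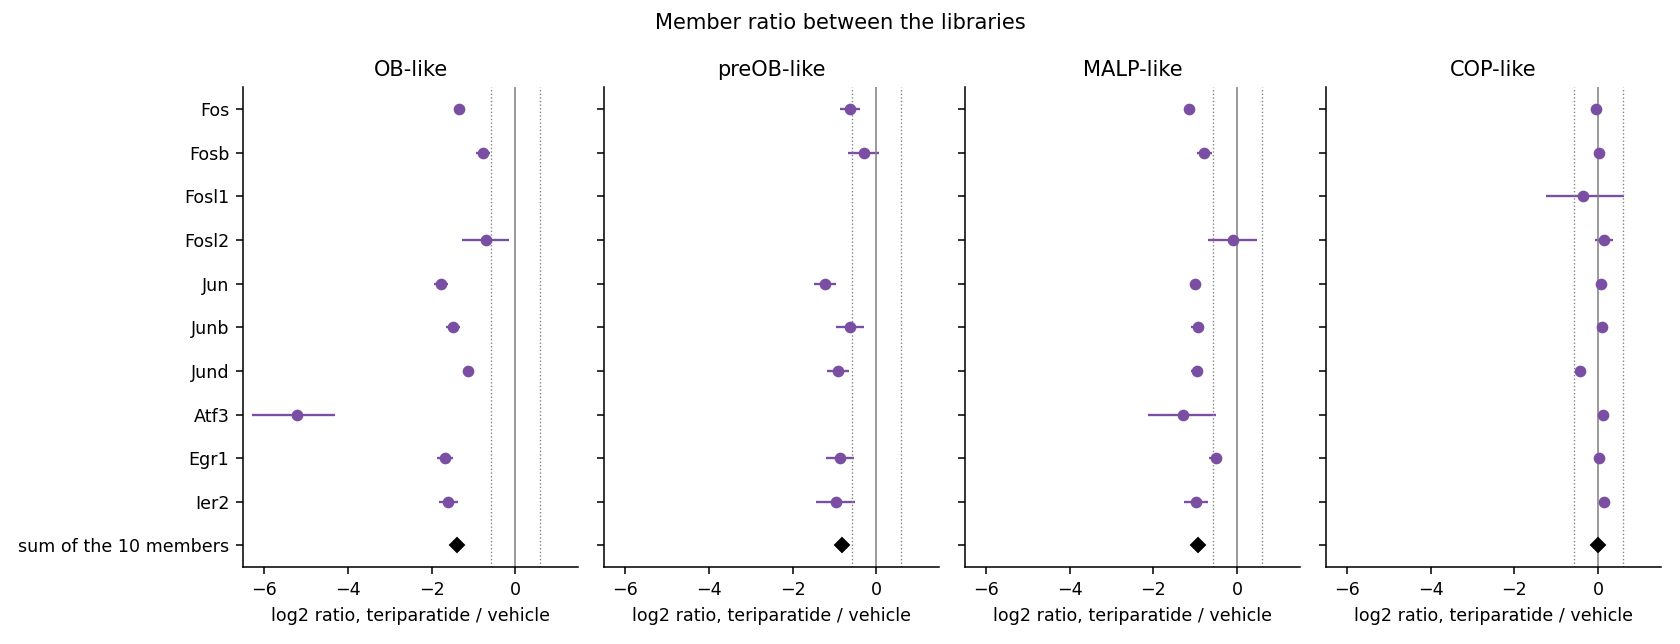
Log2 ratio of teriparatide to vehicle CPM on the x axis for each member with at least 50 UMIs in the class (circles) and for the sum of the 10 (diamonds), with bars for the exact 95% interval from counting and dotted lines at 1.5-fold. All 9 points of the OB-like and all 7 of the preOB-like cells lie left of 0, those of the COP-like cells sit at or near 0, and Atf3 in the OB-like cells lies farthest left, at -5.21.

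The sexes were unevenly sampled, so each ratio was also taken within a sex. Among OB-like cells with a call, the vehicle library had 30 male and 58 female cells and the teriparatide library 80 and 5. The summed log2 ratio was -1.35 (-1.42 to -1.28) in male and -2.04 (-2.26 to -1.82) in female OB-like cells. In the MALP-like cells it was -0.73 (-0.80 to -0.66) over 51 and 62 male cells, and -1.90 (-2.14 to -1.66) over 66 and 7 female cells. In the preOB-like cells it was -0.33 (-0.50 to -0.16) over 26 and 36 male cells and -0.75 (-0.99 to -0.53) over 22 and 6 female cells. The lower sums of the OB-, MALP- and preOB-like cells were thus present within each sex, with the smallest gap in male preOB-like cells, where 2 members were past 1.5-fold. In the COP-like cells the sexes went opposite ways, at 0.17 (0.15 to 0.19) over 52 and 228 male and -1.34 (-1.39 to -1.29) over 11 and 25 female cells. The part of the sex of the cells in the pooled ratios was not tested.

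**Figure D3:**
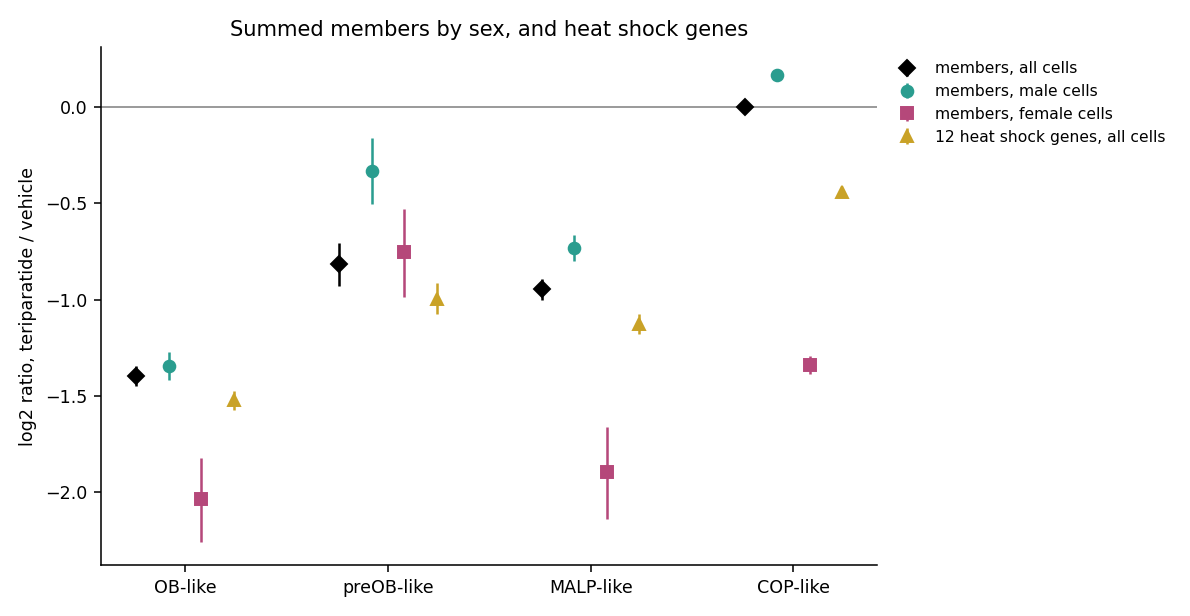
Log2 ratio of teriparatide to vehicle on the y axis for 4 classes: the 10 members summed over all cells (diamonds), male cells (circles) and female cells (squares), and 12 heat shock genes summed over all cells (triangles), with exact 95% intervals from counting. Members and heat shock genes lie below 0 in the OB-, preOB- and MALP-like cells, where each sex does too, and the COP-like cells have male cells at 0.17 and female cells at -1.34.

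Heat shock genes, which also respond when cells are dissociated, moved with the members. Their 12 transcripts together had 4998 and 1737 CPM in the vehicle and teriparatide OB-like cells, 5263 and 2641 CPM in preOB-like and 7237 and 3312 CPM in MALP-like cells. Of those measured, 11 of 12, 9 of 11 and 9 of 12 were at least 1.5-fold lower, beside 13%, 18.2% and 10.2% of all genes. In the OB-like cells Hspa1b, an inducible Hsp70 whose reads the counting could split with Hspa1a, had 1039 and 123 CPM, and the small chaperone Hspb1 60.3 and 2.26 CPM. Hsp90ab1, a constitutive Hsp90, differed less, at 722 and 541 CPM. In the COP-like cells the 12 genes had 15791 and 11629.8 CPM, so that they were 1.36-fold lower in the teriparatide library while the 10 members were level. The heat shock sum of the COP-like cells was above that of the OB-, preOB- and MALP-like cells in both libraries. It was below that of the Ocy-like cells (42300 and 28276 CPM) and of the monocyte-like cells (18023 and 14157 CPM). Of the single genes, 8 of 12 in the vehicle and 10 of 12 in the teriparatide library were at least 1.5-fold higher in the COP-like cells than in the next of those 3 classes. Of all genes, 8.79% and 9.79% were. Over cells of 1 class and library, the members summed without Fosl1 and Fosl2 were rank-correlated with summed heat shock genes. The correlation was 0.69 and 0.74 in the COP-like, 0.63 and 0.44 in the MALP-like, 0.55 and 0.26 in the OB-like, and 0.27 and 0.13 in the preOB-like cells. These were 65 to 260, 79 to 123, 92 to 94 and 51 to 57 cells that share a library and were thinned to 3000 UMIs. The part of dissociation in the member levels was not tested.

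Within a class the members varied widely from cell to cell. The interquartile range of the COP-like cells ran from 7336 to 22574 CPM in the vehicle and from 6206 to 22005 CPM in the teriparatide library, with medians of 16342 and 14509.9 CPM. That of the MALP-like cells ran from 735 to 9095 CPM in the vehicle, with a median of 3282 CPM, and from 494 to 4069 CPM in the teriparatide library, with a median of 942 CPM. The median OB-like cell held 2295 CPM in the vehicle and 957 CPM in the teriparatide library, so the lower level of these cells was seen in the typical cell as well as in the sum. The members also varied together from cell to cell: among pairs of members in the thinned COP-like cells, the rank correlation had a median of 0.54 over 28 pairs with vehicle and 0.59 with teriparatide, highest for Fos with Junb (0.79 and 0.76). In the MALP-like cells the highest pair was Fos with Jun in the vehicle (0.77) and Fos with Egr1 in the teriparatide library (0.86). The rank correlation of the members summed without Fosl1 and Fosl2 with the mitochondrial share of the same cells was weak. It was negative in all but the OB-like cells of the teriparatide library, among cells already held to at most 10% mitochondrial UMIs. The values lay between -0.25 and 0.14 over the 4 classes and both libraries.

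**Figure D4:**
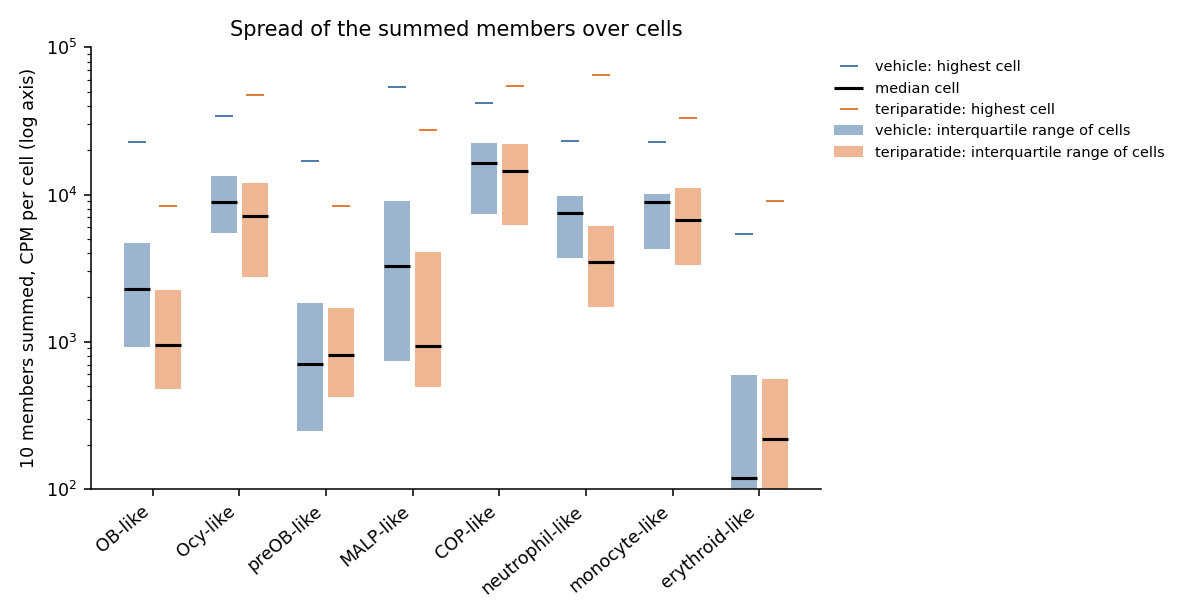
The 10 members summed, as CPM of each cell on a log axis, for 8 classes and both libraries: boxes span the interquartile range of the cells, black lines mark the median cell and dashes the highest cell (boxes of the erythroid-like cells reach below the axis). The boxes of the COP-like cells sit at the top and nearly match between the libraries, while the median OB-like and MALP-like cells are lower and the median preOB-like cell is slightly higher in the teriparatide library.

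In most of the other classes, blood cells included, the sum over all cells was lower in the teriparatide library as well. The Ocy-like cells, 17 and 38 in number, had 10825 CPM (10196–11484) and 7991 CPM (7665–8328) of the sum. Of their 8 members measured, 1 was at least 1.5-fold lower (Jund, at 2829 and 1729.9 CPM) and 1 as much higher, and 6 had a log2 ratio below 0. The higher one was Egr1, at 128 and 279 CPM, but its vehicle level rested on 13 UMIs in 3 cells. The median member stood at -0.37 and the median gene at 0.053. The share of all genes past the limit was not taken for the Ocy-like and neutrophil-like cells. The neutrophil-like cells had 6417 CPM (6004–6850.4) and 3698 CPM (3619–3779). More of that gap lay in Junb than in any other member, at 2519.6 CPM (2264–2797) and 972 CPM (931–1014), and Fosl2 was lower as well, at 585 and 287 CPM. Of their 10 members measured, 3 were at least 1.5-fold lower and 2 as much higher. The higher ones were Fosb and Atf3, on 5 and 2 vehicle UMIs. The monocyte-like cells had 7093 CPM (6757–7441) and 6494 CPM (6386–6604), and none of their 9 members measured was 1.5-fold lower or higher, beside 18.2% and 12.7% of 5414 genes. The erythroid-like cells had 818 and 605 CPM, and granulocyte-monocyte progenitor-like cells 1820 and 1149 CPM over 8 and 54 cells. B cell-like cells had 5234 and 4608 CPM over 11 and 34 cells, a log2 ratio of -0.18 (-0.37 to 0.0011). The hypertrophic chondrocyte-like cells went the other way, from 1884 CPM over 5 vehicle cells to 5477 CPM over 19 teriparatide cells. Within a sex the blood cells did not share a direction. The summed log2 ratio was 0.16 (0.036 to 0.30) in male and -0.52 (-0.63 to -0.40) in female monocyte-like cells. It was -0.76 (-0.92 to -0.60) in male and -0.080 (-0.42 to 0.27) in female neutrophil-like cells. For erythroid-like cells it was -0.97 in male and 1.65 in female cells, the latter on 14 vehicle UMIs. The sort gate excluded cells positive for CD45 or Ter119, and the blood cells present had gone through the same digestion as the mesenchymal ones. The part of the digestion or of the sex of the cells in these ratios was not tested.

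A list of 35 other immediate early genes, 34 of them in the files, shared the lower direction of the members in the OB-, MALP- and preOB-like cells. In the OB-like cells 16 of 24 measured were at least 1.5-fold lower and 2 higher, in the MALP-like cells 11 of 27 lower and 2 higher, in the preOB-like cells 8 of 20 lower and 2 higher, and in the COP-like cells 1 of 30 lower and 6 higher. Of all genes measured in these classes, 13%, 10.2%, 18.2% and 17% were that much lower and 6.92%, 8.25%, 8.57% and 8.14% higher. The medians of the list on the log2 scale were -0.82, -0.49, -0.33 and 0.021. In the blood cells the list was lower than the members. Its median was -0.84 in the neutrophil-like cells, beside -0.46 for the members and -0.14 for all genes. In the monocyte-like cells the values were -0.40, -0.16 and -0.11. Lowest in the OB-like cells were Ier3, an inhibitor of apoptosis induced by stress, with 116 and 40.2 CPM, and the orphan nuclear receptor Nr4a2, with 103 and 36.5 CPM. Highest were Ctgf, a matrix signalling protein, with 18.0 and 48.1 CPM, and the clock gene Per1, with 10.1 and 16.9 CPM. In the MALP-like cells the lowest were Cebpb, a factor of adipocyte differentiation, with 675 and 199.9 CPM, and Klf2, with 128 and 39.4 CPM, and the highest were the phosphatase Dusp5 (16.5 and 35.1 CPM) and Per1 (22.0 and 34.2 CPM). In the preOB-like cells the antiproliferative gene Btg2 (61.2 and 23.1 CPM) and Gadd45g (232 and 96.6 CPM) were lowest, and Ctgf (489 and 899.8 CPM) and Zfp36l1 (246 and 419 CPM) highest. In the COP-like cells Per1 (20.4 and 43.6 CPM) and Egr2, a relative of Egr1 (66.8 and 141 CPM), were highest and Nfkbia, the inhibitor of NF-kappa B (357 and 182 CPM), and Ier3 (521 and 364 CPM) lowest. Against the other 3 classes, 19 of 32 of these genes in the vehicle and 25 of 32 in the teriparatide library were at least 1.5-fold higher in the COP-like cells. Of all genes, 8.79% and 9.79% were.

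Of 17 other basic leucine zipper factors, 3 of 11 measured were 1.5-fold lower and 1 higher in the OB-like, 4 and 1 of 11 in the preOB-like, 4 and 0 of 11 in the MALP-like, and 5 and 0 of 16 in the COP-like cells. Of all genes measured in these classes, 13%, 18.2%, 10.2% and 17% were that much lower and 6.92%, 8.57%, 8.25% and 8.14% higher. Jdp2, which represses AP-1 sites, had 28.2 and 16.5 CPM in OB-like, 132 and 49.0 CPM in preOB-like and 26.0 and 7.80 CPM in COP-like cells. Atf5 had 75.2 and 48.1 CPM in OB-like and 94.1 and 36.8 CPM in MALP-like cells. Maf, which steers stromal cells toward osteoblasts, was higher, at 21.1 and 39.5 CPM in OB-like and 371 and 565 CPM in preOB-like cells. Of 21 kinases and factors upstream of the members, none of 13 measured was past 1.5-fold in the OB-like cells, and 3 of 10 were lower and 1 higher in the preOB-like, 1 and 1 of 16 in the MALP-like and 2 and 0 of 19 in the COP-like cells. Srf, which drives Fos and Egr1 through the CArG box, had 11.4 and 9.02 CPM in OB-like and 18.3 and 29.8 CPM in MALP-like cells, and the kinase gene Mapk3 (Erk1) 35.6 and 48.1 CPM in OB-like, 60.7 and 73.2 CPM in COP-like and 101 and 117 CPM in MALP-like cells. In the preOB-like cells Mapk3 went the other way, at 112 and 73.5 CPM, 1.53-fold lower with teriparatide.

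A list of 16 genes known as targets of AP-1 did not share a direction. In the OB-like cells 1 of 7 measured was 1.5-fold lower and 3 higher, in the preOB-like cells 1 and 4 of 8, in the MALP-like cells 2 and 1 of 7, and in the COP-like cells 4 and 1 of 10. Of all genes measured in these classes, 13%, 18.2%, 10.2% and 17% were that much lower and 6.92%, 8.57%, 8.25% and 8.14% higher. Mmp13, the collagenase of growth plate and bone, had 5.72 and 164 CPM in the vehicle and teriparatide OB-like cells, 2536 and 5283 CPM in MALP-like cells and 844 and 70.5 CPM in COP-like cells, so it was higher in the teriparatide library in the OB- and MALP-like and lower in the COP-like cells. Ccnd1, a cyclin of the G1 phase, had 11.0 and 38.7 CPM in OB-like and 28.4 and 73.5 CPM in preOB-like cells. Vegfa, the angiogenic factor, had 80.5 and 35.0 CPM in OB-like cells. Tnfsf11, which encodes RANKL, the signal for osteoclast formation, had 750.3 and 372 CPM in MALP-like cells, and the opposite direction in preOB-like cells, at 88.2 and 181 CPM on 62 and 133 UMIs. Vehicle COP-like cells held 0 UMIs of it, which allows up to 1.66 CPM, and teriparatide COP-like cells held 65 UMIs, or 8.17 CPM.

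The genes whose level was most like that of the summed members, by Pearson's r of log2(CPM + 1) over the 7 classes with at least 20 cells in each library (14 points, among 12086 genes with at least 50 UMIs), were Egr2 (r = 0.939), the glycolytic enzyme gene Pgam1 (0.930), the ubiquitin ligase gene Rlim (0.928), the small Maf gene Maff (0.924) and Gm26532 (0.917). The points share libraries and, in pairs, a cell class, so these values only describe the order of the classes.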

How the data were processed

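The deposited files hold raw UMI counts per gene and barcode, which the authors made with Cell Ranger on mm10, after barcodes not assigned to cells had been filtered out. The version is 2.1.0 in the submitters' notes and 3.1.0 in the matrix header. No value was normalized or batch-corrected before deposit.

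Cells were kept with 200 to 6000 genes and at most 10% mitochondrial UMIs, the limits of the study. Doublets were treated only through the upper gene limit. Canonical correlation analysis in Seurat 5.3.0 (R 4.3.3) joined both libraries on 2000 variable genes, from which the 10 members, the listed genes, the markers and the sex genes were left out, and cells were clustered on 20 principal components at a resolution of 0.6. Cells outside the hematopoietic clusters and without a UMI of Ptprc were clustered again. A cluster was named where at least 3 markers of a class were seen in at least 10% of its cells and exceeded the mean of the other clusters. One shallow cluster of 61 vehicle and 68 teriparatide cells had no name and was left out. Sex was called male from any Y-linked UMI (Kdm5d, Uty, Ddx3y, Eif2s3y) without Xist, and female from Xist without those.

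Counts were summed per class and library and given as CPM with exact Poisson intervals. Log2 ratios carry conditional binomial (Clopper-Pearson) intervals and shares exact binomial ones, all at 95% and all covering counting error only. With 1 library per group no p-value was computed. A gene counted as measured from 50 UMIs in the class over both libraries, and the limit was 1.5-fold. For counts of genes higher in COP-like cells, the 50 UMIs were taken within 1 library over the COP-, OB-, preOB- and MALP-like cells together. A level from 0 UMIs was bounded at 3 UMIs. The ratio code was tested on simulated counts. All 10 members are described. From each list the 2 genes with the highest and the 2 with the lowest ratio in a class could be named, together with the 5 genes most like the summed members. The members and lists were chosen with earlier results of these data known. Positions are from GENCODE vM21 (GRCm38), and promoter sequences are from RefSeq on GRCm38.p6. Alternatives were the mitochondrial limit, the upper gene limit, cells gated one by one by their markers, median ratio scaling, the mean of per-cell CPM, thinning, each sex alone, leaving out the 5 cells richest in member UMIs, a minimum of 20 UMIs and a 2-fold limit. Joining OB-like and Ocy-like cells, and leaving out the 5 OB-like cells richest in Atf3, were chosen after seeing the data.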

Additional observations from a re-analysis of the deposited data

Results flagged for a closer look

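In the COP-like cells the summed members differed in opposite directions by sex: the log2 ratio of teriparatide to vehicle was 0.17 in male cells (14453 and 16248 CPM over 52 and 228 cells) and -1.34 in female cells (22642 and 8942 CPM over 11 and 25 cells). The difference between the sexes was not tested, since the files do not tie cells to mice.

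Barcodes outside the limits on genes and mitochondrial share, which no comparison uses, also held the members, at 2945 CPM summed over 737 vehicle barcodes and 4064 CPM over 925 teriparatide barcodes. Fos stood at 791 and 1112 CPM there and Atf3 at 65.6 and 242 CPM, with a median mitochondrial share of 87.1% and 90.5% of the UMIs.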

How the results depend on the processing

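No paired analysis was possible because each group has 1 library, and no library could be left out for the same reason. The lower summed members of the OB-like and MALP-like cells kept their direction under every alternative run, with log2 ratios of -2.04 to -1.01 and -1.90 to -0.73. Those of the preOB-like cells ran from -0.75 to -0.11, and the COP-like cells from -1.34 to 0.20.

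With a mitochondrial limit of 20%, the preOB-like ratio was -0.11, with 1 member 1.5-fold lower and 1 higher, its median member reversed to 0.069, and the COP-like ratio was 0.030. Thinning gave -1.30 in OB-like cells, -0.16 with 0 members lower in preOB-like cells, and 0.024 in COP-like cells. Gating cell by cell gave -0.69 with 3 members lower in preOB-like and 0.036 in COP-like cells. No upper gene limit gave -0.047 in COP-like cells. Median ratio scaling gave -1.27 (OB-like), -0.67 (preOB-like), -0.87 (MALP-like) and 0.20 (COP-like). The mean of per-cell CPM gave -1.28 (OB-like), -0.51 with 3 members lower (preOB-like) and -0.85 (MALP-like). Without the 5 cells richest in members, the values were -1.31 (OB-like), -0.49 with 3 members lower (preOB-like), -1.14 (MALP-like) and 0.13 (COP-like). Male cells alone gave -0.33 with 2 members lower (preOB-like), -0.73 (MALP-like) and 0.17 (COP-like), and female cells alone gave -2.04 (OB-like), -1.90 (MALP-like) and -1.34 with 8 members lower (COP-like). A 2-fold limit left 1 member lower in preOB-like and 3 in MALP-like cells. Joined with the Ocy-like cells, an alternative chosen after seeing the data, the OB-like ratio was -1.01. The cause of these shifts was not tested beyond the construction of each alternative. Fosl1 in all mesenchymal classes and Atf3 in preOB-like cells had few or no UMIs, so that a few UMIs decide the level.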
